A study of Equus caballus with 8 samples.

Results

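Cyclic nucleotide phosphodiesterases (PDEs) are the enzymes that break down the second messengers cAMP and cGMP, and 10 genes of this family are described here in equine mesenchymal stem cells from bone marrow (BM-MSCs) grown with or without TGF-β2. The genes were PDE1A, PDE1B, PDE1C, PDE3A, PDE4A, PDE4B, PDE4D, PDE5A, PDE7B and PDE10A. They were found by gene symbol, and all 10 had a row among the 15266 named genes. The set was chosen by family and by the fall of PDE1A in this same comparison, so the values of the 10 genes are a description and no p-value is given for them.

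BM-MSCs are the plastic-adherent stromal cells that grow out of marrow, here from the sternum of 4 Thoroughbred or Thoroughbred-cross horses labelled D, J, L and W. The marrow of each horse was divided, and every horse contributed 1 untreated library and another from cells kept in 1 ng/ml recombinant human TGF-β2 from isolation to passage 3 or 4. All cultures shared low-glucose medium with fetal bovine serum, and the study's methods add basic fibroblast growth factor to the medium. Poly(A)-selected RNA from the whole culture was sequenced, and the values are normalized counts, the reads of a gene divided by 1 size factor per library.

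Cyclic AMP is made by adenylyl cyclases, which stimulatory G proteins switch on below hormone and prostaglandin receptors, and it acts through protein kinase A and the exchange factor EPAC. Cyclic GMP is made by guanylyl cyclases that respond to nitric oxide or natriuretic peptides, and it acts largely through protein kinase G. PDEs end both signals, and the families differ in substrate and control. PDE1 enzymes are switched on by calcium and calmodulin, PDE3 takes both nucleotides and is slowed by cGMP, PDE4 and PDE7 are specific for cAMP, PDE5 is specific for cGMP, and PDE10 takes both. In fibroblasts, agents that raise cAMP are known to oppose the activation of the cells by TGF-β.

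Between 40044240 and 57228675 reads were assigned to named genes per untreated library and between 39184554 and 46634539 per treated library. The floor used below, 3 reads, equals 2.02 to 3.60 normalized counts depending on the library. Of 10 genes listed as TGF-β responsive, 8 were called higher in the treated libraries, SKIL among them, beside 5.59% of all genes tested. The list was chosen with earlier results of these data known, so it is no independent check of the treatment. SMAD7 and LTBP2 were not called. The stromal markers ITGB1, CD44, THY1, NT5E, ENG and PDGFRB all had a row, with a summed level of 161820 to 355470 normalized counts in untreated and 172850 to 271840 in treated libraries, and THY1 was called lower.

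Differences between the groups are given as log2 fold changes of log2(normalized count + 1), which understates the change of genes with few reads, with the standard error from limma, a linear model fitted to all tested genes. A call of higher or lower needed an adjusted p (Benjamini-Hochberg, over all tested genes) under 0.05 together with a log2 fold change beyond 1 in size. All 10 genes passed the filter of at least 10 normalized counts in at least 4 libraries, PDE1A through its untreated libraries alone. PDE3A, PDE4B and PDE4D were called higher after TGF-β2 treatment, beside 5.59% of all 14907 genes tested. PDE1A and PDE7B were called lower, beside 5.87% of all genes. With a block for the horse in the model, which compares the 2 libraries of each horse, PDE1C was called lower as well, giving 3 higher and 3 lower, beside 6.83% and 7.31% of all genes. The 4 treated and 4 untreated libraries did not overlap for 5 of the 10 genes, beside 27.8% of all genes. The median log2 fold change of the 10 genes was -0.15, and that of all genes tested was 0.01. As the set was chosen with this comparison known, nothing is read from these shares.

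**Figure D1:**
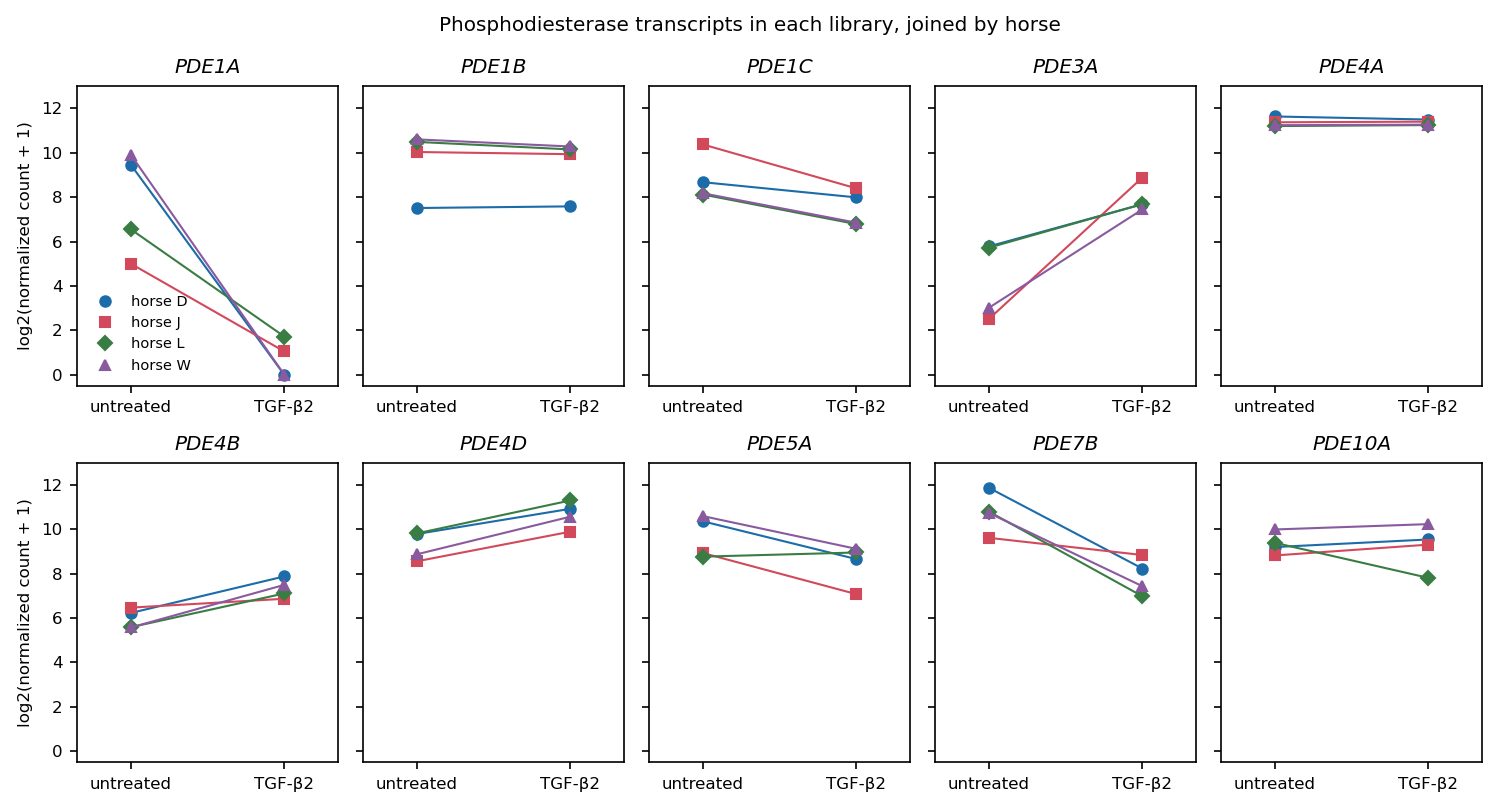
Expression of the 10 genes in every library, as log2(normalized count + 1) on the vertical axis, with untreated on the left and TGF-β2-treated on the right of each panel. Each line joins the 2 libraries of 1 horse. PDE1A ran to 0 or close to it in all 4 horses, PDE3A, PDE4B and PDE4D rose in all 4, and the lines of PDE4A and PDE1B stayed nearly level.

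PDE1A, a calcium- and calmodulin-stimulated enzyme that takes both nucleotides, was present in all untreated libraries and nearly absent from the treated ones. The untreated libraries of horses D, J, L and W held 801, 46, 98 and 939 reads of PDE1A, or 697, 31.0, 92.3 and 953 normalized counts. The treated libraries of the same horses held 0, 1, 2 and 0 reads. The groups did not overlap, while the untreated libraries of D and W were far above those of J and L. Against the floor of 3 reads, the treated library was at least 195-fold lower in horse D, 9.65-fold in J, 26.8-fold in L and 265-fold in W. The horses with the higher starting level allow the larger bound, and the true ratio below the floor is not measured. Over the group, the untreated mean was 443 ± 454 normalized counts (SD, n = 4), at least 128-fold above the mean floor of the treated libraries. PDE1A stood at rank 6 from the lowest of the 14907 genes by fitted log2 fold change, which was -7.03 ± 1.08 (SE), and -5.25 with a pseudocount of 5 in place of 1. With the block it was not called without D or without W. Since the fall of PDE1A chose the set, its calls are no evidence of stability.

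The untreated library of horse J, with the fewest reads of PDE1A, also held the most of the leukocyte markers PTPRC (CD45), 109.7 normalized counts against 1.74 to 41.5 in the other untreated libraries, and CD68, 2437 against 451 to 739.7. It also held the most ITGAL, 53.9 against 21.3 to 40.5, but the least CSF1R, 1.3465 against 7.83 to 147. Summed over the 4 leukocyte markers with a row, the level was 499 to 2602 normalized counts in untreated and 388 to 714 in treated libraries. Most of this sum was CD68, at 451 to 2437 in untreated and 362 to 685 in treated libraries. Limma called none of the 4 markers. PTPRC was called lower by DESeq2 with the block. CD14 had no row in the table. Their part in the values of the PDE genes was not tested. With horse J left out, the same 5 of the 10 genes were called without the block and the same 6 with it. That fit does not test the part of these markers, which the other untreated libraries held as well. In bulk RNA, fewer cells that express a gene and less RNA of it per cell cannot be told apart.

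PDE1B, the second calmodulin-dependent gene, differed between horses and hardly between cultures of the same horse. The untreated libraries of D, J, L and W held 181, 1044, 1431 and 1547 normalized counts of PDE1B, and the treated ones 191, 975, 1131 and 1239.8. Horse D was the lowest in both groups, and the order of the 4 horses was the same with and without TGF-β2. The highest horse was 8.55-fold above the lowest in untreated and 6.51-fold in treated cells. Within a horse the log2 change of PDE1B ran only from -0.34 to 0.07. Its fitted change was -0.17, with an SE of 0.82 without the horse in the model and 0.11 with it, and PDE1B was called in neither fit.

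PDE1C, the third gene of the subfamily, was lower after treatment in every horse. It had 406, 1321, 276 and 287 normalized counts in the untreated libraries of D, J, L and W and 253, 335, 109 and 114 in the treated ones. Horse J was highest and L lowest in both groups, with the same order of horses throughout, so the groups overlapped although each horse moved down. Single horses changed by -0.68 in D, -1.98 in J, -1.33 in L and -1.32 in W on the log2 scale. The log2 fold change of -1.33 had a standard error of 0.57 without the horse in the model and 0.23 with it. PDE1C was called lower with the block, and by DESeq2 in both of its models, but not in the model without the block. The blocked call was kept without D, J or L and lost without W.

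PDE3A, a cAMP-hydrolysing enzyme that cGMP inhibits and that is well known from heart, platelets and vascular smooth muscle, rose in all 4 horses. The untreated libraries of D, J, L and W held 53.9, 4.71, 51.8 and 7.10 normalized counts of PDE3A, which are 62, 7, 55 and 7 reads. Treated cells had 204, 470, 205 and 173 normalized counts. No treated library reached down to an untreated one. Horses J and W started lowest and changed most, by 6.37 and 4.42 on the log2 scale against 1.90 in D and 1.96 in L. The untreated levels of J and W rest on 7 reads each. The log2 fold change of PDE3A was 3.66 ± 0.80 (SE), which put it at rank 136 from the top of all genes tested. It was not called with horse W left out of the model without the block, nor without D or W in the model with it.

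The 3 PDE4 genes in the set, which encode cAMP-specific enzymes that rolipram-type drugs inhibit, did not change alike. PDE4A had 3164, 2639, 2347 and 2410 normalized counts in the untreated libraries of D, J, L and W and 2875, 2693, 2418 and 2453 in the treated ones. These levels were close in all 8 libraries, and the order of the horses did not change. The log2 change of PDE4A lay between -0.14 and 0.04 in single horses, with a log2 fold change of -0.01 and a standard error of 0.12.

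PDE4B, the PDE4 gene best known from leukocytes and inflammation, had 74.0, 87.5, 47.1 and 46.7 normalized counts in the untreated libraries of D, J, L and W and 233, 115.6, 137 and 179 in the treated ones. The groups did not overlap, with horse J the highest untreated and the lowest treated library. PDE4B changed by 0.40 in J and by 1.52 to 1.92 in the other 3 horses, and its log2 fold change was 1.37 ± 0.31 (SE). The call was lost with D, L or W left out, with or without the block, and kept without J.

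PDE4D, the PDE4 gene known from cardiac and airway muscle cAMP control, rose by similar amounts in the 4 horses. In untreated libraries of D, J, L and W it had 879.7, 375, 896 and 467 normalized counts, and in treated ones 1931, 945, 2506 and 1509. The lowest treated library stood just above the highest untreated one, and J, W, D and L followed in that order from low to high in both groups. Single horses rose by 1.13 in D, 1.33 in J, 1.48 in L and 1.69 in W on the log2 scale. The log2 fold change of 1.41 had a standard error of 0.38 without the horse in the model and 0.12 with it. With the block PDE4D was called whichever horse was left out, and without the block only when J was.

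PDE5A, the cGMP-specific enzyme that sildenafil inhibits, was lower in 3 horses and not in the fourth. It had 1306, 485, 433 and 1537 normalized counts in the untreated libraries of D, J, L and W and 401, 134, 493 and 553 in the treated ones. Horse L stood apart, with a log2 change of 0.19 against -1.70 in D, -1.85 in J and -1.47 in W. The log2 fold change of PDE5A was -1.21, with an SE of 0.57, or of 0.36 when the horse was in the model, and limma called it in neither fit. Without horse L the mean change was -1.67, and the model with the block then called it lower. DESeq2 called it with all 4 horses only when the horse was in its model.

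PDE7B, a cAMP-specific enzyme, showed the second largest decrease of the set. The untreated libraries of D, J, L and W held 3713, 779.6, 1768 and 1692 normalized counts and the treated ones 299, 456, 125 and 172. The groups did not overlap, and horse J went from the lowest untreated to the highest treated library. PDE7B changed by -0.77 in J on the log2 scale and by -3.63, -3.81 and -3.29 in D, L and W. Its fitted change was -2.88 ± 0.53 (SE). The call was lost without horse W in the model without the block and without D or W in the model with it.

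PDE10A, an enzyme for both nucleotides that is best known from the striatum of the brain, gave no common direction. It had 585, 449.7, 667 and 1013 normalized counts in untreated libraries of D, J, L and W and 741, 631, 223 and 1197 in treated ones. Horse L changed by -1.58 on the log2 scale, whereas D, J and W changed by 0.34, 0.49 and 0.24. Its fitted change was -0.13 ± 0.49 (SE), and without L the mean change was 0.36. DESeq2 and edgeR without a term for the horse gave 0.04, so that even the sign depended on the method. PDE10A and PDE5A were the 2 genes of the set in which horse L moved against the other 3.

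**Figure D2:**
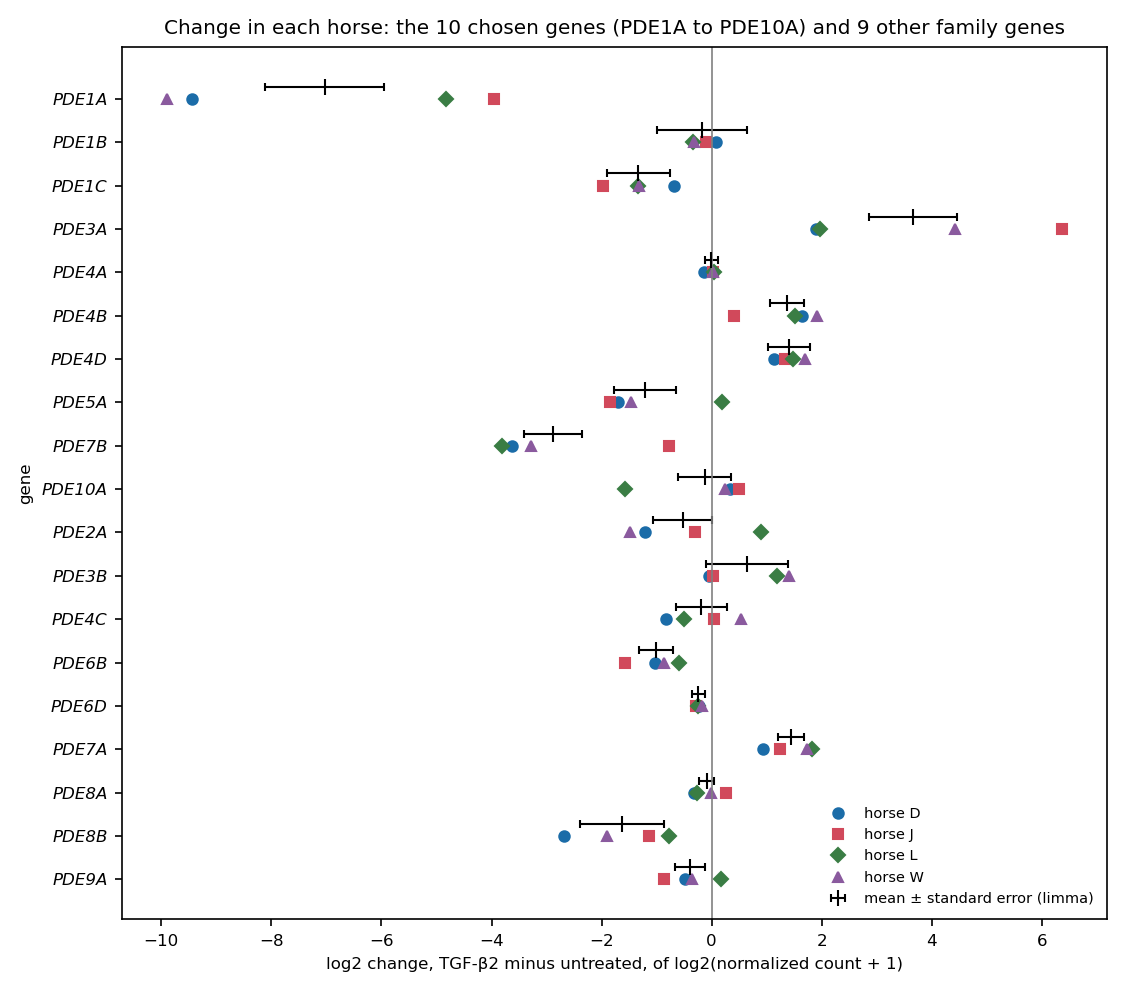
Log2 change of 19 PDE genes in single horses (coloured markers, TGF-β2-treated minus untreated on the horizontal axis) with the mean and standard error from limma without a horse term (black bars). The first 10 rows are the chosen genes and the last 9 the other PDE genes with a row. The markers of PDE4D lie within 1.13 to 1.69, whereas those of PDE1A spread from -9.90 to -3.95.

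A further 9 PDE genes had a row, none of them in the chosen set. PDE7A, the paralogue of PDE7B, was higher in every horse. It had 154, 97.6, 119.7 and 115.7 normalized counts in untreated libraries of D, J, L and W and 297, 232, 428 and 386 in treated ones, with no overlap. The log2 fold change of PDE7A was 1.44 ± 0.24 (SE), and its limma adjusted p was 0.00543 (0.00684 in the blocked model). The call was lost with W left out in the model without the block.

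PDE6B, a subunit of the photoreceptor enzyme for cGMP, was lower in every horse. It went from 606, 721, 342 and 311 normalized counts in D, J, L and W to 297, 243, 226 and 171, without overlap. The log2 fold change of PDE6B was -1.01, on the edge of the threshold, and its limma adjusted p was 0.0476 (0.0146 in the blocked model). It was not called with any horse left out of the model without the block, and with the block only when L was.

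PDE8B, an enzyme for cAMP of high affinity, had 265, 34.3, 28.3 and 156 normalized counts in the untreated libraries of D, J, L and W and 40.5, 15.0, 16.1 and 40.8 in the treated ones. Every horse went down, by 0.78 to 2.68 on the log2 scale, but the groups overlapped. Its fitted change was -1.63, and the limma adjusted p was 0.162, against 0.0241 in the blocked model, so that limma called PDE8B lower only with the block. DESeq2 called it with and without the block. The blocked limma call was lost without D or without W.

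The remaining 6 PDE genes were called in no fit with all 4 horses. PDE8A, the paralogue of PDE8B, had a mean of 3018 ± 476 normalized counts (SD, n = 4) before and 2834 ± 350.0 after treatment, a log2 difference of -0.09. PDE6D, which carries prenylated proteins rather than nucleotides, was lower in each horse by 0.17 to 0.29 on the log2 scale without overlap of the groups, with an adjusted p of 0.186 from limma. PDE9A, specific for cGMP, and PDE3B, the partner of PDE3A, had log2 fold changes of -0.39 and 0.64. PDE2A and PDE4C had mean levels of 18.7 ± 12.9 and 36.2 ± 10.9 normalized counts in untreated cells and 11.8 ± 4.91 and 35.5 ± 24.8 in treated cells. Of all 19 PDE genes, 7 were called without the block and 9 with it, beside 11.5% and 14.1% of all genes tested. PDE6A, PDE6C, PDE6G, PDE6H and PDE11A had no row in the table.

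Because paralogues are read from the same library, their ratio does not depend on how libraries are scaled, apart from the pseudocount. The ratio of PDE7B to PDE7A on the log2 scale was 4.58, 2.98, 3.87 and 3.86 in the untreated libraries of D, J, L and W and 0.01, 0.97, -1.76 and -1.16 in the treated ones. The groups did not overlap, and the change of the ratio was -4.31 ± 1.59 (SD, n = 4 horses). Each ratio is of reads, not of molecules, since the reads were not divided by transcript length, and only its change is read here.

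The ratio of PDE4D to PDE4A went up by 1.42 ± 0.18 on the log2 scale (SD, n = 4 horses), in every horse by 1.27 to 1.66. The smaller spread than in any other of the 7 ratios came with overlapping groups, as the untreated ratios of the horses ran from -2.81 to -1.39. PDE4B went up against PDE4A by 1.38 ± 0.70, without overlap. For PDE1A against PDE1B the change was -6.86 ± 3.12, and for PDE1C against PDE1B it was -1.16 ± 0.49. PDE3A went up against PDE3B by 3.02 ± 2.40, from 0.77 in L to 6.34 in J, with overlap of the groups. For PDE8B against PDE8A the change was -1.54 ± 0.79. In each of the 7 ratios all 4 horses moved the same way. The pairs were picked after their values were seen, so nothing is read from this agreement. The treated ratios of PDE1A to PDE1B rest on 0 to 2 reads of PDE1A and on the pseudocount.

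**Figure D3:**
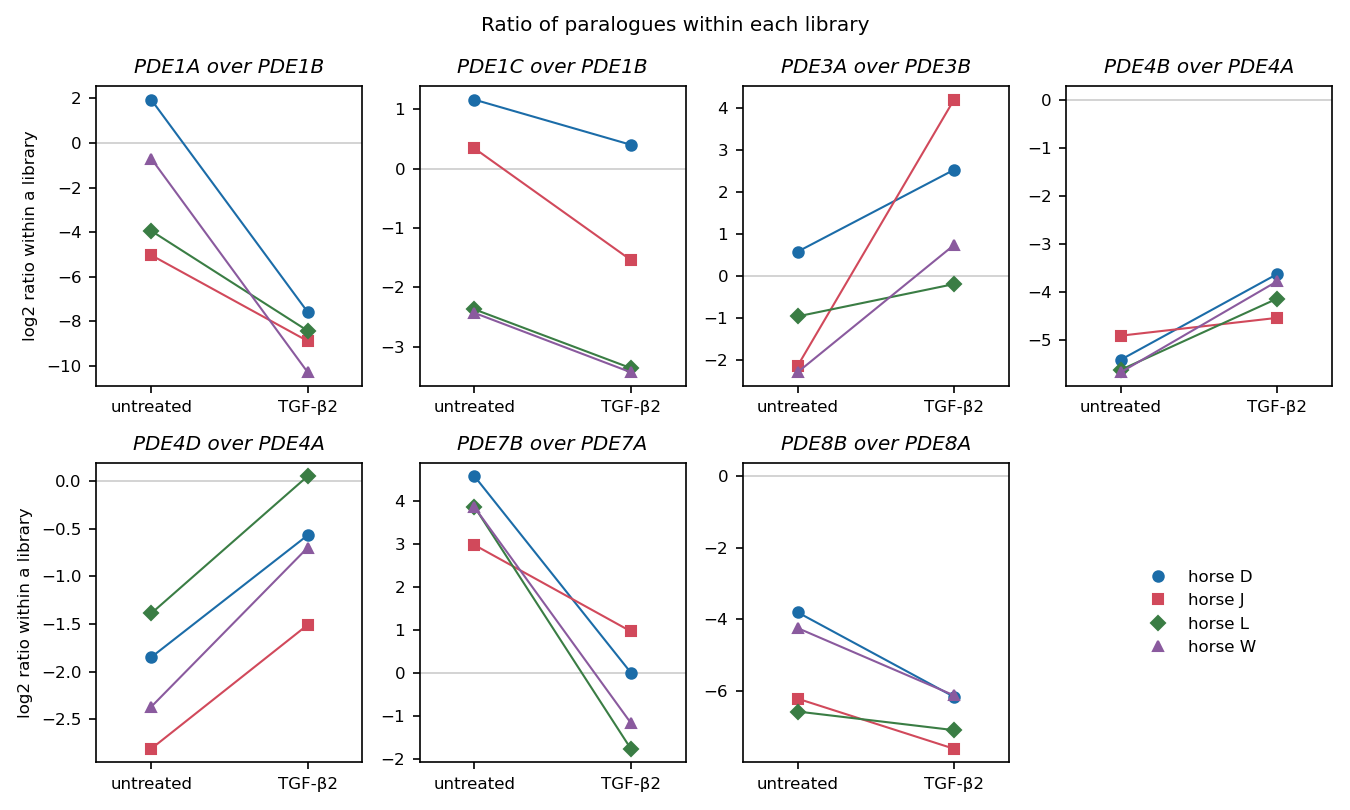
Log2 ratio of 7 pairs of PDE paralogues within each library (vertical axis, with a different range in each panel), untreated on the left and TGF-β2-treated on the right, with lines joining the libraries of 1 horse. The PDE7B over PDE7A panel falls from between 2.98 and 4.58 to between -1.76 and 0.97, and the 4 lines of PDE4D over PDE4A run nearly parallel.

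The genes whose pattern was most like that of PDE1A were SNED1, EPHX1, DDIT4L, RBP5 and LOC100067869. Likeness was the root mean square difference of log2(normalized count + 1) over the 8 libraries, after each gene was centred on its own mean, and it ran from 1.02 for SNED1 to 1.26 for LOC100067869. SNED1, an extracellular matrix protein, had 4630, 272, 2978 and 4297 normalized counts in the untreated libraries of D, J, L and W and 13.1, 11.8, 10.3 and 18.0 in the treated ones. EPHX1, the microsomal epoxide hydrolase, went from 12969, 1981, 9639.5 and 15704 to 106, 134, 108 and 140.6. As with PDE1A, horse J had the lowest untreated level of both genes.

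RBP5, a retinol-binding protein, also had its lowest untreated level in horse J, with 615, 20.2, 48.1 and 217 normalized counts in untreated libraries of D, J, L and W and no more than 2 reads per library after treatment. DDIT4L, an inhibitor of mTORC1 signalling, had 472, 66.0, 37.7 and 1303 normalized counts in untreated libraries and 2.38, 5.35, 0 and 1.20 in treated ones, so that L and not J was lowest before treatment. LOC100067869, a locus without a name, had 278, 55.9, 112 and 658 normalized counts in untreated libraries and at most 4 reads in treated ones. These 5 genes were picked for likeness to PDE1A over the 8 libraries. Neither their fall nor a low untreated level in horse J is therefore a separate result.

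**Figure D4:**
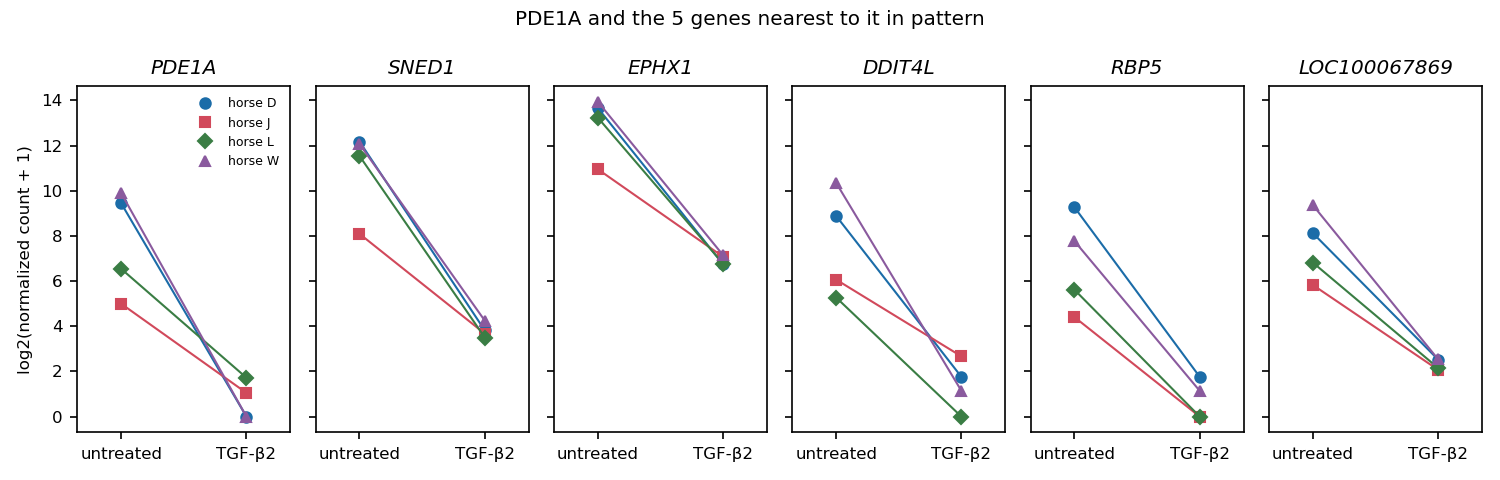
PDE1A and the 5 genes nearest to it in pattern, as log2(normalized count + 1) on the vertical axis in untreated (left) and TGF-β2-treated (right) libraries, joined by horse. All 6 genes fall in all 4 horses, and horse J has the lowest untreated level in each except DDIT4L, where L is lowest.

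Other genes that make, carry or answer cyclic nucleotides were taken from 9 lists, 122 genes in all, of which 91 had a row and 89 were tested. Of these, 3 were called higher and 12 lower, 16.9% beside 11.5% of all genes tested, and their median log2 fold change was -0.09 beside 0.01. With the horse as a block, 6 were called higher and 12 lower, and all 15 calls made without it were kept.

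**Figure D5:**
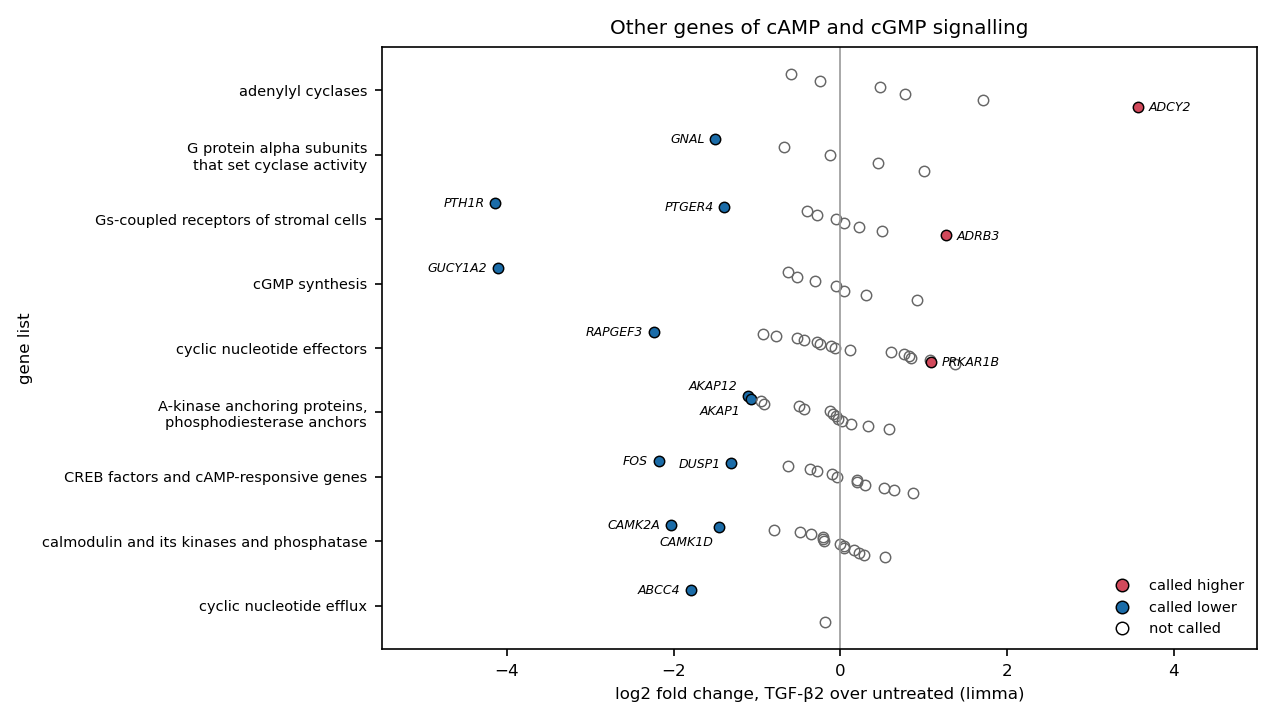
Log2 fold change (horizontal axis, TGF-β2 over untreated, limma without a horse term) of the 89 tested genes in 9 lists of cyclic nucleotide signalling. Red points were called higher, blue points lower, and open circles were not called. Most points lie between -1 and 1, and PTH1R and GUCY1A2 lie beyond -4.

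On the side of cAMP synthesis, 1 of 6 adenylyl cyclases tested was called. ADCY2 had 1, 1, 3 and 4 reads in the untreated libraries of D, J, L and W and 32, 17, 90 and 12 in the treated ones. It met the filter through its treated libraries alone, so its call is given as a description, with no p. ADCY5, a cyclase that calcium inhibits, was higher in every horse by 1.16 to 2.25 on the log2 scale, but from levels that differed between horses. Limma called it with the block and not without it. ADCY5 was picked after its values were seen, so no p is given for it. The most read cyclase, ADCY6, had a log2 fold change of 0.78 and was called in neither fit.

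Among G protein α subunits, 1 of 5 tested was called without the block. GNAL, a stimulatory subunit, was lower in each horse, from 220.2 ± 84.3 to 75.0 ± 23.0 normalized counts (SD, n = 4; limma, adjusted p = 0.0267). GNAI2, an inhibitory subunit and the most read of the list, had a log2 fold change of 0.45. GNAZ, another inhibitory subunit, had a log2 fold change of 1.01, on the edge of the threshold. Limma called it higher only with the block, and DESeq2 with and without it. With single horses left out, the blocked limma call was kept only without D. GNAZ was picked after its values were seen, so no p is given for it. GNAS had no row in the table.

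Of 9 receptors that couple to cAMP synthesis, 3 were called. PTGER4, the prostaglandin E2 receptor EP4, was lower, with 913 ± 455 normalized counts (SD, n = 4) before and 313 ± 70.1 after treatment (limma, adjusted p = 0.0451). The call was lost under upper-quartile scaling and in the fit without a trend. PTH1R, the parathyroid hormone receptor, had 40.0, 31.6, 358 and 65.9 normalized counts in the untreated libraries of D, J, L and W and 0, 21.4, 5.75 and 1.20 in the treated ones. Its adjusted p from limma was 0.0281, and edgeR with the block did not call it. ADRB3, the β3-adrenergic receptor, was higher in each horse, with a log2 fold change of 1.27 (limma, adjusted p = 0.0112).

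For cGMP, 1 of 8 genes tested in the list of cGMP synthesis and natriuretic peptide receptors was called. GUCY1A2, an α subunit of the nitric oxide-sensitive guanylyl cyclase, was lower in every horse, from 334, 1566, 779 and 2598 normalized counts in D, J, L and W to 56.0, 29.98, 49.4 and 133. GUCY1A2 changed by -4.11 ± 0.67 (SE) on the log2 scale (limma, adjusted p = 0.00485). The other subunits of that enzyme, GUCY1A1 and GUCY1B1, changed by 0.05 and 0.31 on the log2 scale and were not called. NPR3, the natriuretic peptide clearance receptor, was the most read gene of the list, with a log2 fold change of -0.05.

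Of 17 effectors tested, RAPGEF3 (EPAC1) was called lower and PRKAR1B, a regulatory subunit of protein kinase A, higher. RAPGEF3 had 23.5, 87.5, 24.5 and 23.3 normalized counts in untreated libraries of D, J, L and W and 4.76, 7.49, 6.90 and 6.01 in treated ones. It met the filter through its untreated libraries alone and is likewise described with no p. PRKAR1B had a log2 fold change of 1.09 (limma, adjusted p = 0.0468). RAPGEF4 (EPAC2) had a log2 fold change of 1.08 and was called higher only with the block. The blocked limma call was lost with any horse left out, and the untreated libraries of L and W held 9 and 6 reads. RAPGEF4 was picked after its values were seen, so no p is given for it. PRKAR1A, the most read effector, was lower in every horse, with a mean change of -0.93 on the log2 scale, which missed the fold threshold (limma, adjusted p = 0.00825).

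Anchoring proteins hold protein kinase A and PDEs at sites in the cell, and 2 of 14 tested were called, both lower. AKAP12 had a log2 fold change of -1.11 with an adjusted p of 0.0254 from limma, and was lower in 3 of 4 horses, with horse L at 0.02, and edgeR with the block did not call it. AKAP1, which sits on mitochondria, changed by -1.07 (limma, adjusted p = 0.0151). Among 13 CREB factors and cAMP-responsive genes, FOS and DUSP1 were called lower, with log2 fold changes of -2.18 and -1.31 and adjusted p of 0.0254 and 0.0181 from limma. Both genes also answer growth factor and stress signals. CREM, CREB1 and NR4A1 were not called, with log2 fold changes of 0.53, -0.04 and 0.65.

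Of the 15 genes tested in the list of calmodulin, its kinases and its phosphatase, the kinases CAMK2A and CAMK1D were called lower, with log2 fold changes of -2.03 and -1.45 and adjusted p of 0.00853 and 0.0174 from limma. ABCC4, a pump that exports cyclic nucleotides, was lower in each horse, from 853 ± 432 to 226 ± 17.4 normalized counts (SD, n = 4; limma, adjusted p = 0.00664), whereas ABCC5 had a log2 fold change of -0.18 and was not called.

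The number of called genes in these lists depended on which horses were in the fit. Without a block, 2 genes were called without D, 15 without J, 9 without L and 5 without W, and GUCY1A2 and ABCC4 were the 2 of the 15 called genes that were kept in all 4 of these fits. With the block, CAMK2A, GNAL and GUCY1A2 were kept in all 4.

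Several PDEs, PDE1A, PDE3A and PDE5A among them, are known from smooth muscle, and smooth muscle markers differed between the groups. Of 5 such markers, ACTA2, CNN1 and DES were called higher and MYH11 and RGS5 were not. DES met the filter through its treated libraries alone, and ACTA2 is also among the genes listed as TGF-β responsive. The summed level was 33126 to 173120 normalized counts in untreated and 209140 to 573960 in treated libraries. Most of this sum was ACTA2, at 31682 to 158390 in untreated and 189160 to 515280 in treated libraries. MYH11, the most specific of the 5 markers, had a log2 fold change of -0.12 ± 1.22 (SE). Of the endothelial and haematopoietic markers, CDH5 and KDR summed to 7.10 to 26.3 normalized counts in untreated and 30.04 to 55.7 in treated libraries, with KDR called higher, and CD34 and PECAM1 had no row. The part of these cells in the values of the PDE genes was not tested.

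Scaling to equal library totals instead shifted the median over all genes by -0.31 (log2), and the PDE genes shifted with it. The log2 fold changes of PDE4B and PDE4D were then 1.06 and 1.10, and those of PDE1C, PDE5A and PDE7B were -1.64, -1.52 and -3.19. Relative to the median gene the order of the 10 genes was as before, and the same 5 were called. Among the other genes of cyclic nucleotide signalling, ADRB3 and PRKAR1B were not called under this scaling, and PRKAR1A and POPDC3 were called lower.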

How the data were processed

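RNA-sequencing libraries of 4 horses, each untreated and TGF-β2-treated, were analysed. Per the paper and the submitters' processing notes, the authors used Trimmomatic 0.36 for trimming and STAR 2.5.2b for alignment to EquCab 3.0, and counted unique gene hits with featureCounts of Subread 1.5.2. The deposited values are normalized counts, a signal that is never negative: gene counts divided by a DESeq2 size factor per library. The strand setting of the counting is not given in the sources used here. Of 15267 rows, 1 without a gene name, 0.0281% to 0.0531% of a library, was left out. The smallest sum over the 8 libraries was 81 reads.

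Every value was a whole multiple (within 0.01 of a read) of 1 step per library, in 100% of the values, and these recovered reads gave depth and the count tests. Lower bounds used 3 reads, which covers counting error only, since duplicated PCR fragments are counted too. Groups were compared with limma 3.58.1 (R 4.3.3), lmFit and eBayes with trend on log2(normalized count + 1), after a filter of 10 normalized counts reached in 4 or more libraries, without a term for the horse, since the paper's text names none. Libraries of 1 horse come from the same animal: their deviations from the group means correlated by 0.386 to 0.609 across genes. The mean between different horses was -0.159, but centring on the group means itself makes that value negative, so nothing is read from it. The model with the horse as a replicate block is given where it changes a call. DESeq2 1.42.0 and edgeR 4.0.16 (quasi-likelihood), other pseudocounts, filters, scalings and thresholds, and each horse left out were alternatives. When a horse was left out, the filter needed 3 libraries. All p-values rest on cultures of 4 horses. Without the block they set the change against the spread between horses within a group. With the block they set it against how much the change differed from horse to horse. The procedures were tested on simulated data. The spread between horses was set smaller there than in several of the 10 genes, so that test does not cover such genes.

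The 10 genes and all lists were chosen with earlier results of these data known. The genes named are the 10, every other PDE with a row, the called genes of each list (at most 5 by size) with the most read one, the TGF-β response genes and the 5 genes nearest to PDE1A. Genes outside this rule (ADCY5, GNAZ, RAPGEF4, GUCY1A1, GUCY1B1, CREM, CREB1, NR4A1, POPDC3) and the 7 ratios were picked after their values were seen. No sequence or coordinate is printed, since no annotation of the authors' build was used here, and levels of different genes are not compared. Some items that the rule would name are not reported here.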

Additional observations from a re-analysis of the deposited data

Results flagged for a closer look

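In groups of 4 libraries, a library is listed here when its gap to the nearest other, divided by the range of the group, exceeded Dixon's 95% critical value. With normally distributed values, chance alone gives about 1 in 20 groups, 5%. The gaps were taken on normalized counts without logs, so that share need not hold here. Of the 104 groups checked, 10 were found. Horse J gave 6 of them. Its untreated library held 1321 normalized counts of PDE1C, 87.5 of RAPGEF3 and 4901 of AKAP1, each the highest of the 4 untreated libraries. Its treated library had 469.98 normalized counts of PDE3A, 1952 of CAMK1D and 3701 of SKIL, the highest of the treated libraries. The untreated library of horse L was the highest for PTH1R, with 358 normalized counts, and the lowest for AKAP12 and CAMK2A, with 12484 and 147. For NPR3 the untreated library of horse W was the highest, with 17112 normalized counts.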

How the results depend on the processing

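Of the 10 genes, 3 were called higher and 2 lower, with 2 of the 9 other PDEs, 15 genes of the 9 lists and, as all genes called, 1709. No result past the threshold changed sign under any alternative. At an adjusted p under 0.01, 0 of the 10 genes were higher and 2 lower, with 1 other PDE, 4 list genes and 885 of all genes. With no fold change threshold, 26 list genes and 3403 of all genes were called. A filter at 50 left 1 gene lower, since PDE1A was no longer tested, and left out PTH1R, RAPGEF3 and ADCY2. TMM scaling and the fit without a trend left 1 other PDE, PDE7A. DESeq2 with the replicate block called 4 of the 10 genes lower, PDE5A and PDE1C included. The limma fit with the replicate block called 3 higher and 3 lower of the 10, 3 other PDEs, 18 list genes and 2108 of all genes. It lost no call among these genes and gained PDE1C, PDE8B, ADCY5, GNAZ and RAPGEF4. On the recovered reads, all genes called were 2051 by DESeq2 and 1680 by edgeR, or 2343 and 2059 with the replicate block. With each horse left out, with and without the block, 0 to 3 of the 10 genes were higher and 0 to 4 lower, with 0 to 3 other PDEs and 2 to 18 list genes (without the block 2 to 15; with it 18 without J, 6 without W and 7 without D). All genes called then numbered 718 to 1937 without the block and 1085 to 2486 with it. The cause of these moves was not tested beyond the smaller number of libraries.

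Signs turned only for genes near 0 called in no fit named here. PDE4A was 0.00 under upper-quartile scaling, and PDE10A was 0.04 in DESeq2 and edgeR. SMAD7 was -0.29 under total scaling. With each horse left out, the log2 fold change ran from -0.03 to 0.03 for PDE4A, -0.33 to 0.36 for PDE10A, -0.43 to 0.02 for PDE4C, -0.21 to 0.06 for NPR3, -0.33 to 0.00 for ABCC5, -0.14 to 0.15 for SMAD7 (-0.06 without D, with or without the replicate block) and -0.35 to 0.06 for LTBP2. The cause was not tested.
Depth limits PDE1A after treatment, at 0 to 2 reads, ADCY2 before it, at 1 to 4 reads, and PDE3A in the untreated libraries of J and W, at 7 reads each. It also limits RAPGEF3 after treatment, at 4 to 7 reads, and PTH1R, at 0, 20, 5 and 1 reads in treated D, J, L and W. Among the markers, DES had 1 to 8 reads in untreated libraries, and KDR had 3, 22, 5 and 1 in D, J, L and W.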
